A study of Mus musculus with 26 samples.

Results

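Interferon-stimulated genes are the genes that a cell switches on when type I or type II interferon reaches its receptors. They were followed here as a set of 43 named genes across normal stem and progenitor cells of mouse bone marrow and lines immortalized from them in culture. A gene counted as measured when the array annotation gave a probe set that symbol and no other, and each gene was read from its single probe set. By this rule 40 of the 43 genes were measured, among 19937 genes on the array. Isg15 and Gbp2 had only a probe set shared with other symbols, the annotation used here listed no probe set for Ifi44, and these 3 genes were not analysed here.

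Expression was measured on 26 Affymetrix gene arrays in 8 groups, all of strain C57BL/6. Wild-type long-term hematopoietic stem cells (LT-HSC, n = 4) and granulocyte macrophage progenitors (GMP, n = 4) were sorted by flow cytometry from bone marrow. The cultured groups were immortalized lines that had started from either cell type and were harvested from liquid medium. Lines derived from LT-HSC were profiled at 48 h in medium without doxycycline (dox, n = 3) or with it (n = 2), and at 72 h likewise (n = 3 and n = 3). GMP-derived lines were profiled at 48 h without dox (n = 3) and with dox (n = 4). The series is about MLL-AF9, a fusion of the human KMT2A and MLLT3 genes that causes acute myeloid leukaemia. The sources used here state neither the genotype of the lines, nor the promoter of the fusion, nor whether dox was added or withdrawn at the start of the hours. The replicates of a cultured group are different named lines, and the dox group of LT-HSC-derived lines at 48 h and the GMP-derived group without dox each lack 1 line that their partner group has. The labels call the sorted replicates biological but do not tie them to animals, so p-values among them measure only the spread between these samples.

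Type I interferons bind the receptor chains Ifnar1 and Ifnar2, and interferon gamma binds Ifngr1 and Ifngr2. The receptors activate STAT proteins, and a complex that holds Stat2 and Irf9 binds a DNA element called the interferon-stimulated response element (ISRE), whose core repeats GAAA. The genes it turns on sense viral RNA, degrade or block it, tag proteins with Isg15 and feed peptides to MHC class I molecules. In bone marrow, interferon drives resting stem cells into the cell cycle, and stem cells are known to keep part of the programme on without infection.

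The promoter sequences are shown first because the data can be read beside the interferon response elements that some of them contain. RefSeq windows of build GRCm38.p6, running from 250 bases before to 50 bases after a gene's start, were found for 33 of the 43 genes. The ISRE core was searched on both strands as GAAA, any 2 bases and GAAA again, which reads TTTC, any 2 bases and TTTC on the other strand. It lay in the window of 13 of these 33 genes (39.4%), and in 3.99% of the 27025 genes that have a window. A longer core, with a C after the second GAAA, overlaps it by construction and lay in 10 of the 33 genes against 0.944% of all genes. The core of the element that answers interferon gamma (GAS, TTCNNNGAA, a palindrome) lay in 9 of the 33 genes against 9.55% of all genes. A match of letters is a description and not a bound site. The windows around the ISRE core of the 11 measured genes that have one follow, 5′ to 3′ on the gene's strand, with the matching bases in capitals; Ifit3 has 2 separate matches.
Ifit1 (chr19:34640775-34640823, plus strand): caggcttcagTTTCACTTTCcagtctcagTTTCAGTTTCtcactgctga
Ifit3, first match (chr19:34583363-34583392, plus strand): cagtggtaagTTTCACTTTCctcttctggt
Ifit3, second match (chr19:34583397-34583426, plus strand): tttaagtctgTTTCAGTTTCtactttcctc
Ifih1 (chr2:62646206-62646233, minus strand): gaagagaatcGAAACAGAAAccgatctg
Ddx58 (chr4:40239804-40239833, minus strand): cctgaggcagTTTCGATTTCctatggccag
Stat2 (chr10:128270266-128270295, plus strand): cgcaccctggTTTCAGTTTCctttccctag
Oas3 (chr5:120777715-120777744, minus strand): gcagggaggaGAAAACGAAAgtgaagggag
Eif2ak2 (chr17:78882535-78882564, minus strand): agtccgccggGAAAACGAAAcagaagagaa
Rsad2 (chr12:26456553-26456582, minus strand): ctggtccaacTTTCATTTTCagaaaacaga
Bst2 (chr8:71537577-71537612, minus strand): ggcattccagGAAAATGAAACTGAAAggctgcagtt
Trim21 (chr7:102565447-102565476, minus strand): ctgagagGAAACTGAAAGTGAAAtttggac
Gbp3 (chr3:142559989-142560024, plus strand): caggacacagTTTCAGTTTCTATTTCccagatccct

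In Ifit1, 2 cores lie between positions -104 and -76, counted from the gene's start, and the whole stretch of 250 bases before the start shows where they lie.
Ifit1 upstream (chr19:34640639-34640888, plus strand): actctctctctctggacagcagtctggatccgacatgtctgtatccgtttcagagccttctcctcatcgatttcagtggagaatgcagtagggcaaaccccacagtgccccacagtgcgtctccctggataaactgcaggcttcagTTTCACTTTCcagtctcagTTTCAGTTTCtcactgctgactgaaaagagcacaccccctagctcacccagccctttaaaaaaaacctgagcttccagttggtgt
Samd9l, which differed most between the sorted cell types and with dox, has no match to the ISRE core in its window, and its upstream stretch is given for comparison.
Samd9l upstream (chr6:3399572-3399821, minus strand): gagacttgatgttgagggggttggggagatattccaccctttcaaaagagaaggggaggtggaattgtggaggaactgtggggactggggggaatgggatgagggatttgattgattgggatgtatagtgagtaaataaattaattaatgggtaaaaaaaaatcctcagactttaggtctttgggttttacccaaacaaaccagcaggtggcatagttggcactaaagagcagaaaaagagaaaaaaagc
The antigen processing genes Psmb9, Tap1, Psmb8 and Tap2 are neighbours on chromosome 17, and Psmb9 and Tap1 start 225 bases apart on opposite strands. That shared stretch holds neither core and is shown because its 2 genes are described together below.
Psmb9 to Tap1 (chr17:34187331-34187555, strand of Tap1): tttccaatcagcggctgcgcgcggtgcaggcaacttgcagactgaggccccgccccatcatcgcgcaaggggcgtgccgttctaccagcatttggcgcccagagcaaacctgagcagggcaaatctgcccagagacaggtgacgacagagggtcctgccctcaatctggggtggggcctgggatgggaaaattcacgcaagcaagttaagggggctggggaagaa

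All levels are log2 signals as deposited, so a step of 1 doubles the signal, and each probe set is compared only with itself. Array medians lay between 5.81 and 5.91, and arrays within a group had correlations of 0.979 to 0.991. An array's residual spread was between 0.101 and 0.191, with replicate 3 of the LT-HSC-derived group at 72 h without dox at the upper end. The labels were set against marker genes. The 7 measured LT-HSC markers had a mean signal of 8.61 to 8.76 on the sorted LT-HSC arrays and 5.59 to 5.77 on the sorted GMP arrays. On the arrays of LT-HSC-derived lines that mean was 5.35 to 6.30, with 4 or 5 of the 7 markers below the array median, while the 8 GMP markers averaged 9.31 to 9.89. In bulk samples, fewer cells of a type and less RNA per cell cannot be told apart.

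Sorted LT-HSC carried the highest interferon-stimulated gene signal of the 8 groups. Of the 40 genes, 27 had their highest group mean there. Setting each gene against its own mean over all arrays, the median of the 40 genes was 0.27 to 0.52 on the 4 sorted LT-HSC arrays and -0.20 to 0.02 on the other 22. The count and these medians were not taken over all genes, so they do not show how far the pattern is particular to this set. The group means of 18 genes spanned over 1 log2 and those of 5 genes over 2, while 6 genes spanned under 0.5. Ifit3, Mx1, Mx2 and Cmpk2 lay below the array median in every group. By group mean, 4 of the 40 genes lay below the median of the array medians (5.86) in sorted LT-HSC, and 11 to 14 in each other group. Rtp4, Ifit1, Rsad2, Usp18 and Oas3 were among these in all groups but sorted LT-HSC, and Oasl2 in all cultured groups. Whether such dim signals exceed background is not known, and the sizes of differences that involve them carry this limit.

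**Figure D1:**
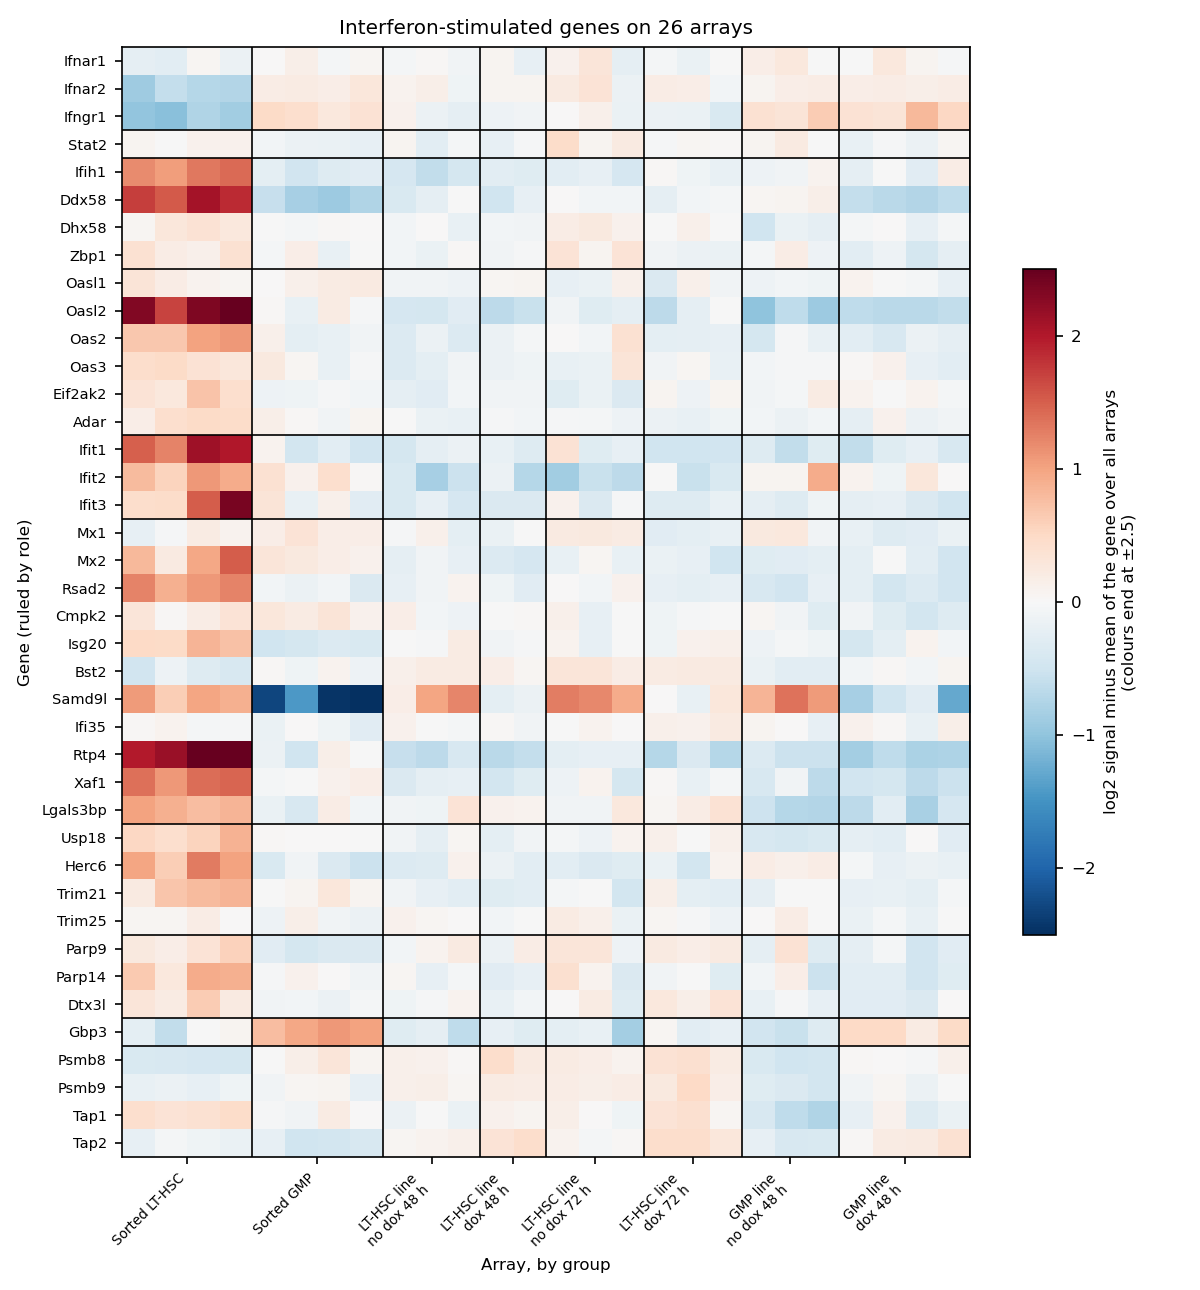
Log2 signal of the 40 measured genes (rows, ruled by role) on the 26 arrays (columns, by group), relative to the mean of each gene over all arrays; red is higher and blue lower. The sensors, Oasl2, the IFIT genes and Rtp4 are red on the 4 sorted LT-HSC arrays, Samd9l is deep blue on the sorted GMP arrays, and Ifnar2 and Ifngr1 are blue in sorted LT-HSC.

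The first comparison asks how the normal counterparts of the lines differ. In sorted GMP, RNA sensors, IFIT genes and most antiviral effectors were lower than in sorted LT-HSC, whereas the receptor chains Ifnar2 and Ifngr1 were higher. A gene was called when limma's adjusted p (Benjamini-Hochberg over all genes, 2-sided) was under 0.05. By this measure 27 of the 40 genes were lower and 5 higher, where 15.3% of all genes were lower and 16.8% higher. The median difference, sorted GMP minus sorted LT-HSC, was -0.47 over the 40 genes and -0.01 over all genes.

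Of the receptors, Ifngr1 read 8.40, 8.34, 8.64 and 8.51 in sorted LT-HSC and 9.86, 9.80, 9.66 and 9.76 in sorted GMP. Ifnar2 read 8.93, 9.23, 9.12 and 9.09 against 10.02, 10.03, 9.99 and 10.11. For both chains every GMP array lay above every LT-HSC array. Here and below, the share of all genes whose arrays do not overlap was not counted, so such statements only describe the readings. The differences were 1.29 ± 0.10 (SE of the fit, adjusted p = 3.06e-10) for Ifngr1 and 0.95 ± 0.09 (adjusted p = 3.73e-09) for Ifnar2, which is 2.45-fold and 1.93-fold. The other type I chain, Ifnar1, differed by 0.19 ± 0.10 and was not called (adjusted p = 0.173). Stat2, a component of the complex that binds the ISRE, differed by -0.21 ± 0.08 and was not called either (adjusted p = 0.0525).

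All 4 sensors were lower in sorted GMP. Ddx58, which encodes the viral RNA sensor RIG-I, read 8.57, 8.39, 8.94 and 8.72 in sorted LT-HSC and 6.29, 6.03, 5.95 and 6.10 in sorted GMP. Ifih1, which encodes the long-RNA sensor MDA5, read 8.93, 8.80, 9.08 and 9.17 against 7.52, 7.29, 7.43 and 7.48. Neither gene's arrays overlapped between the cell types. Ddx58 was lower by 5.93-fold (-2.57 ± 0.10, limma adjusted p = 4.43e-16) and Ifih1 by 2.96-fold (-1.57 ± 0.10, adjusted p = 2.93e-12). Dhx58, a regulator of these sensors, and Zbp1, a sensor of Z-form nucleic acid, were lower by smaller amounts, -0.23 ± 0.08 and -0.29 ± 0.09. The call of Dhx58 ended with quantile normalization, with median centring, without LT-HSC replicate 3 and without GMP replicate 2 (adjusted p 0.0531 to 0.0742), and that of Zbp1 ended without LT-HSC replicate 1 or 4 or GMP replicate 3 (adjusted p 0.0576 to 0.0747).

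Of the 6 enzymes that make, bind or edit double-stranded RNA signals, 5 were lower. Oasl2, a relative of the 2-5A synthetases, read 8.34, 7.72, 8.37 and 8.71 in sorted LT-HSC and 6.07, 5.85, 6.24 and 6.00 in sorted GMP, again without overlap, and was lower by 2.24 ± 0.15 on the log2 scale (adjusted p = 9.37e-12). Oas2, Oas3, Eif2ak2 (the kinase PKR) and Adar (an RNA editing enzyme) were lower by 0.34 to 0.96 on that scale. Oasl1 differed by -0.02 ± 0.09 and was not called.

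The 3 IFIT genes, whose proteins bind foreign RNA ends and block translation, were lower by 0.61 to 1.99 log2. Ifit1 read 6.15, 5.89, 6.78 and 6.66 in sorted LT-HSC and 4.74, 4.20, 4.40 and 4.18 in sorted GMP (-1.99 ± 0.17, limma adjusted p = 7.44e-10). Ifit3 read 4.46, 4.48, 5.54 and 6.39 against 4.34, 3.83, 4.14 and 3.74 (-1.21 ± 0.26). The arrays of neither gene overlapped, but LT-HSC replicates 3 and 4 stood well above replicates 1 and 2 for Ifit3, and the nearest arrays of the cell types were 0.12 log2 apart.

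Among 11 further antiviral effectors, 7 were lower and Bst2 was higher. Samd9l, a growth-restraining gene whose human counterpart is mutated in inherited marrow failure, showed the largest difference of the 40 genes. It read 9.51, 9.08, 9.45 and 9.35 in sorted LT-HSC and 6.17, 7.03, 6.00 and 5.20 in sorted GMP, a 9.52-fold lower mean (-3.25 ± 0.27, limma adjusted p = 5.91e-10). Its GMP arrays spread over 1.83 log2, yet the highest lay 2.05 below the lowest LT-HSC array. Rtp4, an inhibitor of viral genome amplification, read 7.23, 7.41, 8.27 and 8.39 against 5.10, 4.74, 5.38 and 5.24. It was lower by 6.53-fold (-2.71 ± 0.18, adjusted p = 1.23e-11), with LT-HSC replicates 3 and 4 above replicates 1 and 2. Rsad2, which encodes viperin, was lower by 1.27 ± 0.09 (adjusted p = 4.08e-11). Bst2, which encodes the virus-retaining protein tetherin, was higher in GMP by 0.30 ± 0.07 (adjusted p = 0.00107). Cmpk2, Ifi35 and Mx1 were not called; laboratory strains such as C57BL/6 are known to carry a defective Mx1.

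Of the ubiquitin-like system, Herc6, the mouse ligase for Isg15, was lower by 1.32 ± 0.13 (adjusted p = 7.44e-09), as were Usp18, which removes Isg15, and Trim21. Parp9, Parp14 and Dtx3l, neighbours on chromosome 16 whose products act in a shared ADP-ribosylation complex, were each lower, by 0.43 to 0.69. Gbp3, a guanylate-binding protein gene induced mainly by interferon gamma, went the other way: it read 6.73, 6.37, 6.98 and 7.06 in sorted LT-HSC and 7.77 to 8.08 over the 4 arrays of sorted GMP (1.16 ± 0.14, limma adjusted p = 3.87e-07), with no overlap. The antigen processing genes split. The immunoproteasome subunit Psmb8 was higher by 0.53 ± 0.07, the peptide transporter chains Tap1 and Tap2 were lower by 0.38 ± 0.10 and 0.26 ± 0.08, and Psmb9 was not called. Mx2, Trim21 and Zbp1 were called lower although their arrays overlapped between the cell types.

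Other genes of the pathway, 74 measured of 92 listed, were 31 lower and 13 higher in sorted GMP. Among the 33 further interferon-stimulated genes of that list, 21 were lower and 4 higher, including Iigp1, an immunity-related GTPase, at -3.06 ± 0.15 and the helicase gene Ddx60 at -2.60 ± 0.11. Irf7 and Irf9, which carry the interferon signal to DNA, were lower by 0.53 ± 0.12 and 0.38 ± 0.12. Irf8, a myeloid lineage factor, was higher by 2.71 ± 0.16, and Ifitm1, an antiviral membrane protein gene, was lower by 2.35 ± 0.09. Marker genes moved beside these groups: all 7 LT-HSC markers and 5 megakaryocyte markers were lower in GMP, and 7 of 8 GMP markers and 6 of 7 monocyte markers were higher. Of 6 markers of plasmacytoid dendritic cells, which make type I interferon, the 1 called was Bst2 itself, and their mean signal was 5.94 to 6.11 on sorted LT-HSC arrays and 5.99 to 6.04 on sorted GMP arrays. The part of other cell types in the result was not tested.

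**Figure D2:**
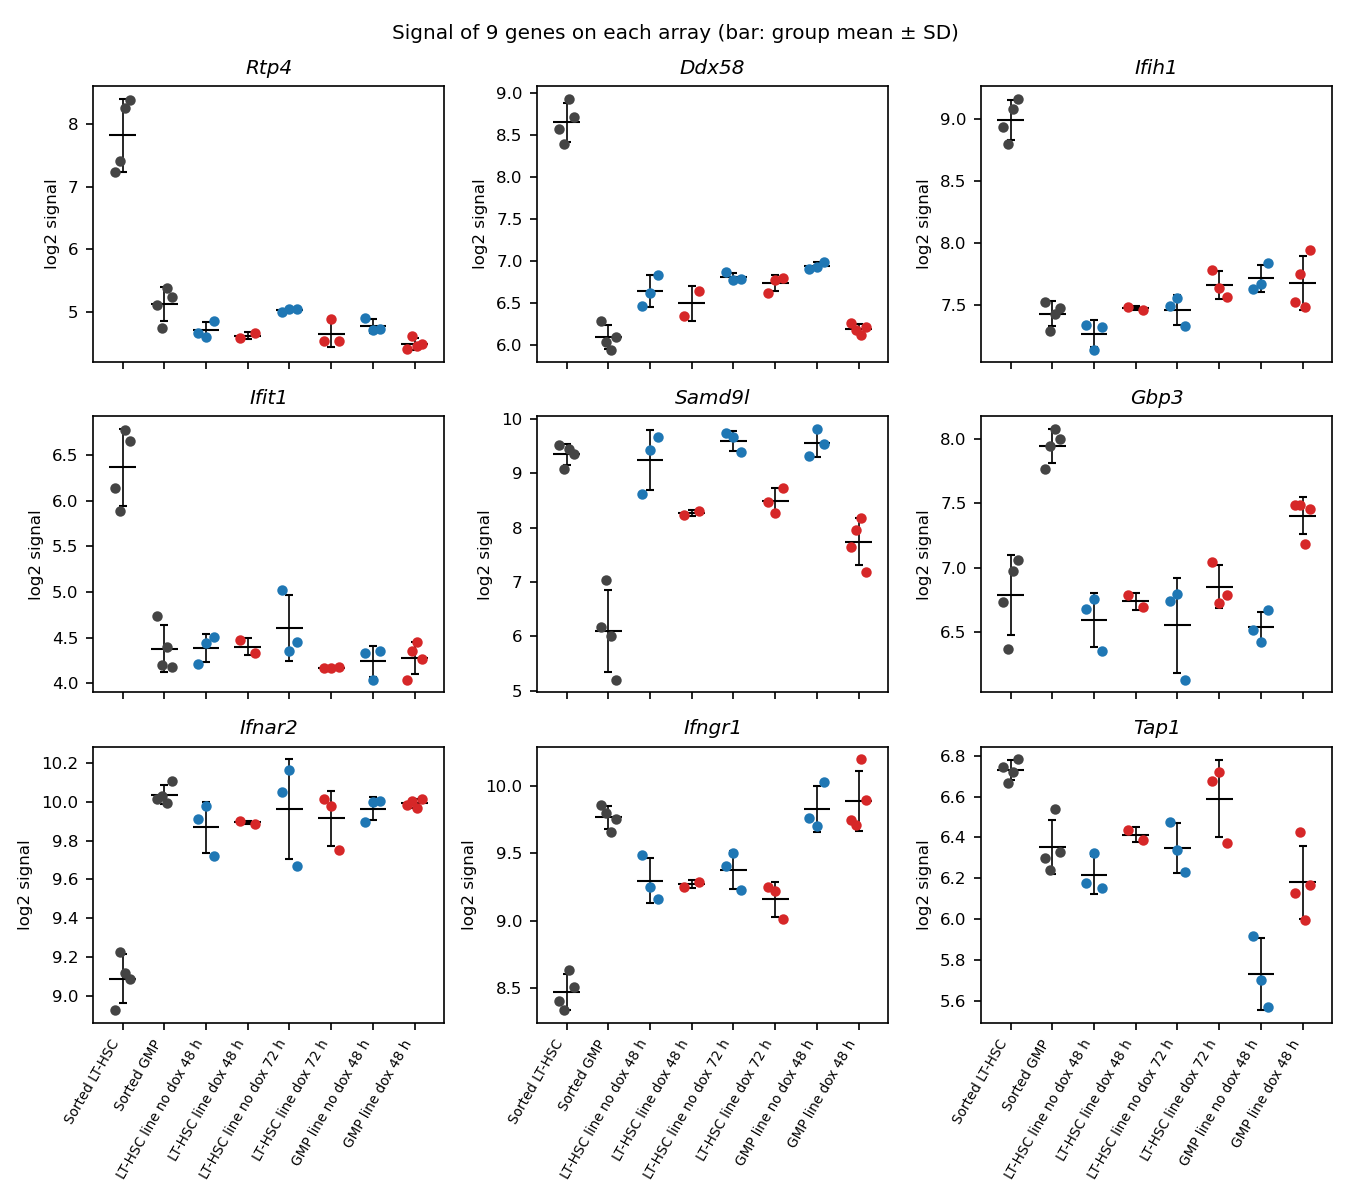
Log2 signal of 9 genes (panels) on each array, by group; points are arrays (grey sorted, blue without dox, red with dox) and bars are group means ± SD over the 2 to 4 arrays of a group. Rtp4, Ddx58, Ifih1 and Ifit1 are high in sorted LT-HSC alone, Ifnar2 and Ifngr1 are lowest there, Samd9l is lowest in sorted GMP, and Gbp3 and Tap1 are higher with dox than without in GMP-derived lines.

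The next comparisons ask how the lines stand to the cells they came from. At 48 h without dox, LT-HSC-derived lines had lower sensor, IFIT and 2-5A synthetase family signals than sorted LT-HSC and higher Ifnar2 and Ifngr1. Of the 40 genes, 25 were lower and 6 higher, where 18.1% of all genes were lower and 17.1% higher, and the median difference was -0.51 over the 40 genes and -0.04 over all genes. This comparison and the sorted comparison share the sorted LT-HSC arrays. Rtp4 read 4.66, 4.59 and 4.85 in the lines, all below the lowest sorted LT-HSC array at 7.23 (-3.12 ± 0.19, limma adjusted p = 3.82e-12). Oasl2 read 5.61, 5.60 and 5.75 (-2.64 ± 0.16, adjusted p = 2.06e-12). Ddx58 read 6.47, 6.62 and 6.84 (-2.02 ± 0.11, adjusted p = 1.99e-13). For Oasl2 and Ddx58 too, no line array reached the sorted LT-HSC range.

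Ifit1 was lower by 1.98 ± 0.18, Ifih1 by 1.73 ± 0.10, Xaf1, an apoptosis factor gene, by 1.60 ± 0.12, Ifit3 by 1.54 ± 0.28 and Ifit2 by 1.42 ± 0.19. The 6 genes that were higher were Ifngr1 (0.82 ± 0.11), Ifnar2 (0.78 ± 0.09), Bst2 (0.51 ± 0.07), Psmb8 (0.50 ± 0.07), Psmb9 (0.28 ± 0.08) and Tap2 (0.22 ± 0.08). The calls of Psmb9 and Tap2 ended with quantile normalization (adjusted p = 0.351 and 0.24). Tap2's call also ended under 8 other alternatives, including without each of the 3 line arrays and without sorted LT-HSC replicate 1 or 4 (adjusted p 0.051 to 0.118). Samd9l stayed near its sorted level: it read 8.63, 9.44 and 9.67, overlapped the sorted arrays, and differed by -0.11 ± 0.29 (95% interval -0.70 to 0.49; adjusted p = 0.82).

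Of the 74 other pathway genes, 30 were lower and 17 higher, led by Iigp1 (-3.10 ± 0.16), Ddx60 (-2.74 ± 0.12), Ifi30, a lysosomal reductase gene (1.78 ± 0.24), and Ifngr2 (1.70 ± 0.14). Irf9 was lower by 0.70 ± 0.13, and Irf7 was not called (-0.31 ± 0.13). All 7 LT-HSC markers were lower, and 7 of 8 neutrophil and 6 of 7 monocyte markers were higher in these lines; their part in the result was not tested, and sorting and culture cannot be told apart from the difference between the cells.

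With dox at 48 h the picture against sorted LT-HSC had the same counts, 25 of the 40 genes lower and 6 higher, where 14.6% of all genes were lower and 14.6% higher. Rtp4 differed by -3.21 ± 0.22, Oasl2 by -2.85 ± 0.18 and Ddx58 by -2.16 ± 0.12. Ifngr1 and Ifnar2 were higher by 0.80 ± 0.13 and 0.80 ± 0.11, Psmb8 by 0.74 ± 0.08 and Bst2 by 0.45 ± 0.08. Samd9l was called lower, at 8.22 and 8.30 against 9.08 to 9.51 in sorted LT-HSC (-1.09 ± 0.33, limma adjusted p = 0.0131). This group has 2 arrays, and that call ended without either of them (adjusted p = 0.0986 without replicate 1 and 0.0655 without replicate 2). The direct difference in Samd9l between these lines with and without dox was not called (-0.98 ± 0.35, adjusted p = 0.371).

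GMP-derived lines without dox differed less from sorted GMP. Of the 40 genes 5 were higher and 11 lower, where 10.8% of all genes were higher and 12.7% lower, with a median of -0.13 over the 40 genes and -0.04 over all genes. Samd9l rose most: it read 9.31, 9.82 and 9.53 in the lines against 5.20 to 7.03 in sorted GMP, 10.9-fold higher (3.45 ± 0.29, limma adjusted p = 4.31e-09). Ddx58 read 6.91, 6.93 and 6.99 against 5.95 to 6.29, higher by 0.85 ± 0.11 (adjusted p = 1.7e-06), and Herc6 was higher by 0.51 ± 0.14. For Samd9l and Ddx58 the line arrays lay above all sorted arrays. Isg20, an RNA exonuclease gene, and Ifih1 were higher by 0.31 ± 0.11 and 0.29 ± 0.10. The call of Isg20 ended without any 1 of the 3 line arrays or of GMP replicates 1, 2 and 4 (adjusted p 0.0555 to 0.118), and the call of Ifih1 ended without any 1 of the 3 line arrays or of GMP replicates 2, 3 and 4 and under 3 other alternatives (adjusted p 0.0501 to 0.216).

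On the lower side, Gbp3 read 6.51, 6.42 and 6.67 in GMP-derived lines without dox, below the sorted GMP range of 7.77 to 8.08 (-1.41 ± 0.15, limma adjusted p = 2.28e-07). Oasl2 was lower by 0.86 ± 0.16, Tap1 by 0.62 ± 0.10, Psmb8 by 0.57 ± 0.07, Lgals3bp, which encodes a secreted galectin ligand, by 0.55 ± 0.14 and Usp18 by 0.42 ± 0.09. Xaf1 was lower by 0.44 ± 0.12, a call that ended without line replicate 3 (adjusted p = 0.0862). Mx2 was lower by 0.49 ± 0.17, and its call ended without any 1 of the line arrays or of GMP replicates 1, 2 and 3 (adjusted p 0.061 to 0.101). Rtp4 (-0.35 ± 0.19), Bst2 (-0.20 ± 0.07), Ifnar2 (-0.07 ± 0.09), Ifngr1 (0.06 ± 0.11), Ifnar1 (0.10 ± 0.11) and Stat2 (0.24 ± 0.09) were not called.

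With dox, GMP-derived lines differed from sorted GMP in 10 of the 40 genes, 2 higher and 8 lower. Of all 19937 genes 1998 were higher and 1945 lower, 19.8% in either direction. The median difference was -0.11 over the 40 genes and -0.02 over all genes. Samd9l, at 7.64, 7.96, 8.18 and 7.18, stood above all sorted GMP arrays but by less than without dox (1.64 ± 0.27, limma adjusted p = 6.98e-05), and Tap2 was higher by 0.60 ± 0.08. The lower genes were Oasl2 (-0.65 ± 0.15), Rtp4 (-0.63 ± 0.18), Xaf1 (-0.58 ± 0.11), Gbp3 (-0.54 ± 0.14), Cmpk2 (-0.52 ± 0.09), Mx1 (-0.45 ± 0.09), Mx2 (-0.45 ± 0.16) and Lgals3bp (-0.43 ± 0.13). The call of Rtp4 ended without GMP replicate 3 (adjusted p = 0.0543). The call of Mx2 ended without any 1 of the 4 sorted arrays or of line replicates 1, 3 and 4 (adjusted p 0.0569 to 0.143), and that of Lgals3bp ended without GMP replicate 3 or line replicate 1 or 3 (adjusted p 0.0575 to 0.089). Of the other pathway genes, Ifitm1 was higher by 2.96 ± 0.10 and Sp140, a nuclear body gene, by 1.71 ± 0.18 in GMP-derived lines without dox than in sorted GMP, and Irf8 was lower by 1.24 ± 0.18. Of 8 neutrophil markers, 7 were higher in those lines without dox, and their part was not tested.

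The difference between cells of the 2 origins was then set beside that of the lines. Without dox at 48 h, 3 of the 40 genes were higher in GMP-derived than in LT-HSC-derived lines and 7 lower, where 3.28% of all genes were higher and 3.52% lower. The median difference was -0.03 over the 40 genes and -0.01 over all genes. All 4 antigen processing genes were lower in GMP-derived lines: Tap1 read 5.92, 5.70 and 5.57 against 6.18, 6.32 and 6.15, without overlap (-0.49 ± 0.11, limma adjusted p = 0.00651). Psmb8 was lower by 0.54 ± 0.08 (adjusted p = 8.25e-05), Psmb9 by 0.49 ± 0.08 and Tap2 by 0.41 ± 0.09. Lgals3bp was lower by 0.71 ± 0.15, Bst2 by 0.41 ± 0.08 and Usp18 by 0.32 ± 0.10. Ifit2 (0.94 ± 0.20), Ifngr1 (0.53 ± 0.12) and Ifih1 (0.45 ± 0.11) were higher. Rtp4 (0.07 ± 0.21), Ddx58 (0.30 ± 0.11), Oasl2 (-0.47 ± 0.17) and Samd9l (0.31 ± 0.31), the 4 genes that differed most between the sorted cells, were not called between the lines. The arrays still did not overlap for Ddx58, at 6.91, 6.93 and 6.99 in GMP-derived against 6.47, 6.62 and 6.84 in LT-HSC-derived lines. Nor did they for Oasl2, at 5.03, 5.40 and 5.13 against 5.61, 5.60 and 5.75. With so few arrays this describes the readings and is not a test.

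Some of these calls rested on single arrays or on the fit. Usp18's ended under 9 alternatives, including without any 1 of LT-HSC-derived replicates 1 and 3 and the 3 GMP-derived arrays (adjusted p 0.0522 to 0.247). Ifih1's ended without LT-HSC-derived replicate 2 or GMP-derived replicate 3 (adjusted p = 0.0755 and 0.07). Ifngr1's ended without LT-HSC-derived replicate 3 (adjusted p = 0.0508). Fitting only the groups compared ended the calls of Ifit2 (0.0775), Ifngr1 (0.0564) and Tap1 (0.0516). Marker genes differed between these lines too. All 6 mast cell and basophil markers were lower in GMP-derived lines (median -2.26), as were 2 of 6 plasmacytoid and 2 of 6 conventional dendritic cell markers. Of these plasmacytoid markers 1 was Bst2 itself, already given above as a gene of the set. Of 8 GMP markers 2 were higher and 1 lower, and 1 of 8 neutrophil markers was higher. Their part in the result was not tested.

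Whether the origin difference itself changed between sorted cells and lines without dox was tested as an interaction. It was called in 24 of the 40 genes. The GMP minus LT-HSC difference was higher in the lines than in sorted cells for 18 of them and lower for 6. Of all genes, 10.2% were called with a higher difference and 12.3% with a lower one. The sign belongs to this difference and not to the level of a gene in the lines. The median interaction was 0.37 over the 40 genes and 0.004 over all genes. Ddx58 gave 2.87 ± 0.15 (limma adjusted p = 8.41e-13): it was lower by 2.57 in sorted GMP and differed by 0.30 ± 0.11 between the lines. Samd9l gave 3.56 ± 0.41, Rtp4 2.78 ± 0.27, Ifih1 2.02 ± 0.15, Ifit1 1.84 ± 0.25, Oasl2 1.78 ± 0.22, Herc6 1.67 ± 0.19 and Ifit2 1.54 ± 0.26. The 6 genes with a lower difference were Gbp3 (-1.22 ± 0.22), Psmb8 (-1.07 ± 0.10), Ifnar2 (-0.85 ± 0.13), Ifngr1 (-0.76 ± 0.16), Bst2 (-0.71 ± 0.11) and Psmb9 (-0.61 ± 0.11). Psmb8 and Bst2 were called higher in sorted GMP and lower in GMP-derived lines, and Ifih1 and Ifit2 the reverse, so the sign of their origin difference turned. Of the 74 other pathway genes 27 had a higher and 9 a lower difference in this test, led by Iigp1 (3.15 ± 0.22), Ddx60 (2.78 ± 0.17), Irf8 (-2.68 ± 0.25) and Parp12, an antiviral ADP-ribosyltransferase gene (2.12 ± 0.23). All 7 LT-HSC markers were called in this test as well, with a median of 3.11.

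**Figure D3:**
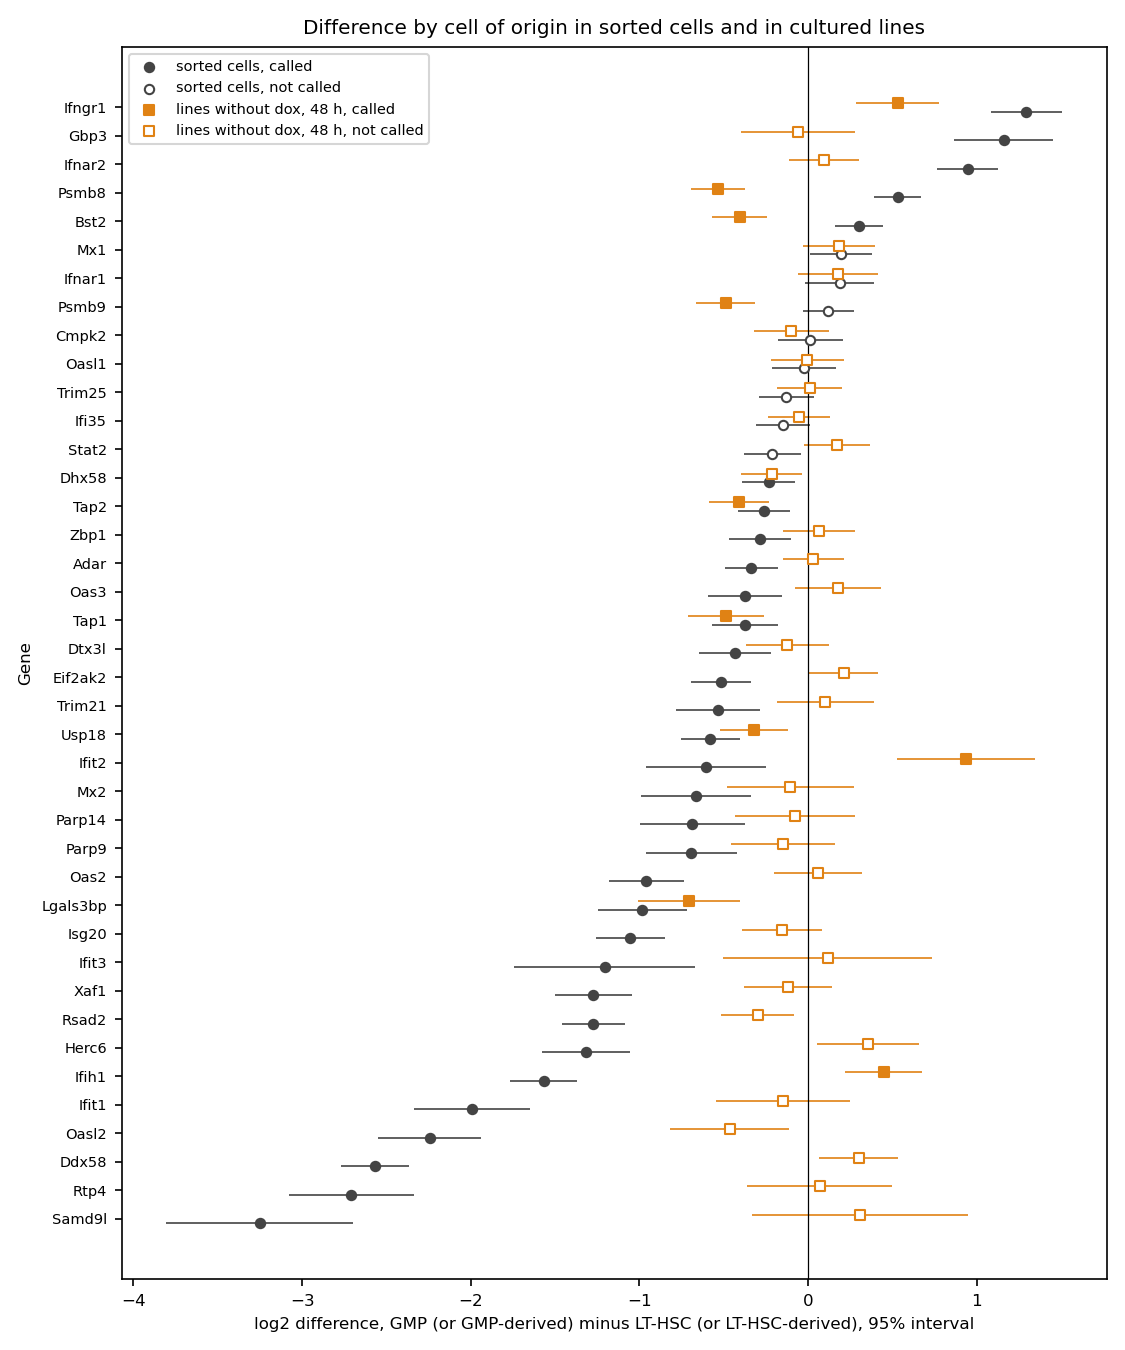
Log2 difference by cell of origin for the 40 genes, sorted GMP minus sorted LT-HSC (grey circles) and GMP-derived minus LT-HSC-derived lines at 48 h without dox (orange squares), with 95% intervals of the fit; filled symbols were called. The grey points run from -3.25 for Samd9l to 1.29 for Ifngr1, while the orange points lie between -0.71 and 0.94.

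With dox at 48 h, 2 of the 40 genes were higher in GMP-derived lines and 1 lower, where 0.943% of all genes were higher and 1.17% lower. Gbp3 differed by 0.67 ± 0.17 (limma adjusted p = 0.0429), Ifngr1 by 0.62 ± 0.13 (adjusted p = 0.00657) and Lgals3bp by -0.64 ± 0.16 (adjusted p = 0.0294). None of these calls held without either of the 2 LT-HSC-derived arrays (adjusted p from 0.0911 for Ifngr1 to 0.444 for Gbp3). Lgals3bp also lost its call without GMP-derived replicate 1 or 3, and Gbp3 without replicate 1, 2 or 4 (adjusted p 0.0733 to 0.0997). Fitting only the groups compared ended the calls of Ifngr1 (0.0721) and Lgals3bp (0.0795), and quantile normalization that of Gbp3 (0.06).

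Lines with and without dox were compared to ask what changes with the drug. In GMP-derived lines at 48 h Samd9l and Ddx58 were lower with dox, and Gbp3 and the antigen processing genes were higher. In LT-HSC-derived lines Samd9l was called lower at 72 h and not at 48 h. In GMP-derived lines at 48 h, 5 of the 40 genes were higher with dox and 3 lower, where 5.75% of all genes were higher and 5.18% lower; the median was -0.04 over the 40 genes and 0.01 over all genes. Samd9l read 9.31, 9.82 and 9.53 without dox and 7.64, 7.96, 8.18 and 7.18 with it, 3.51-fold lower (-1.81 ± 0.29, limma adjusted p = 0.000141). Ddx58 read 6.91, 6.93 and 6.99 against 6.26, 6.18, 6.12 and 6.22 (-0.75 ± 0.11, adjusted p = 3.91e-05). The arrays of neither gene overlapped. Mx1 was lower by 0.38 ± 0.10, and its call ended without replicate 1 or 2 of the lines without dox (adjusted p = 0.0581 and 0.0893).

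All 4 antigen processing genes rose with dox in GMP-derived lines. The arrays of GMP-derived lines without dox also enter the comparison with sorted GMP and the origin comparison without dox. The low readings of these genes there are thus not independent results. Tap2 read 7.34, 7.14 and 7.15 without dox and 7.57, 7.74, 7.76 and 7.91 with it (0.53 ± 0.08, limma adjusted p = 8.4e-05). Psmb8 read 8.77, 8.66 and 8.69 against 9.19, 9.17, 9.12 and 9.28 (0.48 ± 0.07, adjusted p = 6.85e-05). Tap1 was higher by 0.45 ± 0.10 and Psmb9 by 0.33 ± 0.08. The groups did not overlap for Tap2 or Psmb8, nor for Gbp3, which read 6.51, 6.42 and 6.67 without dox and 7.49, 7.49, 7.19 and 7.46 with it (0.87 ± 0.15, adjusted p = 0.000408). The receptors, Stat2, the IFIT genes, the double-stranded RNA enzymes and the PARP genes held no call; Ifnar2 differed by 0.03 (95% interval -0.17 to 0.22) and Rtp4 by -0.29 (95% interval -0.69 to 0.11).

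Of the 74 other pathway genes, 18 were lower and 2 higher with dox in GMP-derived lines. The lower ones included the RNA receptor gene Tlr7 (-1.41 ± 0.29), Samhd1, a nucleotide-depleting restriction factor gene (-0.85 ± 0.16), Sp140 (-0.85 ± 0.18) and Ifi30 (-0.80 ± 0.24), while Irf7 and Irf9 were not called. Myeloid markers moved in the same lines: 6 of 8 neutrophil markers (median -2.42) and 4 of 7 monocyte markers (median -0.88) were lower with dox. The mean neutrophil marker signal was at least 9.85 on the arrays without dox and at most 7.45 on those with dox. Their part in the changes above was not tested.

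In LT-HSC-derived lines at 48 h, limma called 0 of the 40 genes between dox and no dox, where 0.441% of all genes were called in either direction. At an unadjusted p under 0.05 there were 3: Samd9l at -0.98 ± 0.35 (adjusted p = 0.371), Tap2 at 0.30 ± 0.10 (adjusted p = 0.281) and Psmb8 at 0.24 ± 0.09 (adjusted p = 0.374). Samd9l read 8.22 and 8.30 with dox and 8.63, 9.44 and 9.67 without, so the groups did not overlap. With so few arrays this only describes the readings. The interval of its difference ran from -1.70 to -0.27, but it was not adjusted for the number of genes tested, and Samd9l was not called.

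At 72 h, 1 of the 40 genes was higher with dox and 3 lower, where 3.43% of all genes were higher and 3.72% lower. Samd9l read 9.74, 9.66 and 9.39 without dox and 8.48, 8.27 and 8.73 with it (-1.11 ± 0.31, limma adjusted p = 0.0288). Mx1 was lower by 0.46 ± 0.10 (adjusted p = 0.0068), Zbp1 by 0.39 ± 0.10 (adjusted p = 0.0224), and Tap2 was higher by 0.37 ± 0.09 (adjusted p = 0.00933). No array of these 4 genes overlapped between dox and no dox. They were called from the same arrays, so this is not further evidence, and the share over all genes was not counted. The call of Samd9l ended without replicate 1 or 2 of the lines with dox (adjusted p = 0.0869 and 0.101) or without dox (0.102 and 0.0717), and with a trended robust prior (0.0577). The call of Zbp1 ended without replicate 2 or 3 with dox, without replicate 1 or 3 without dox, and with only the groups compared in the fit (adjusted p 0.0622 to 0.103); the last also ended that of Tap2 (0.0695).

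Of the 74 other pathway genes at 72 h, 9 were lower and 3 higher with dox. They included Gbp4, a guanylate-binding protein gene, at 1.42 ± 0.19, Ifi30 at -1.31 ± 0.26, Tlr7 at -1.02 ± 0.31 and the adaptor gene Myd88 at -0.98 ± 0.16. In the same comparison 4 of 8 neutrophil and 4 of 7 monocyte markers were lower, with medians of -1.65 and -1.27, and their part was not tested.

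**Figure D4:**
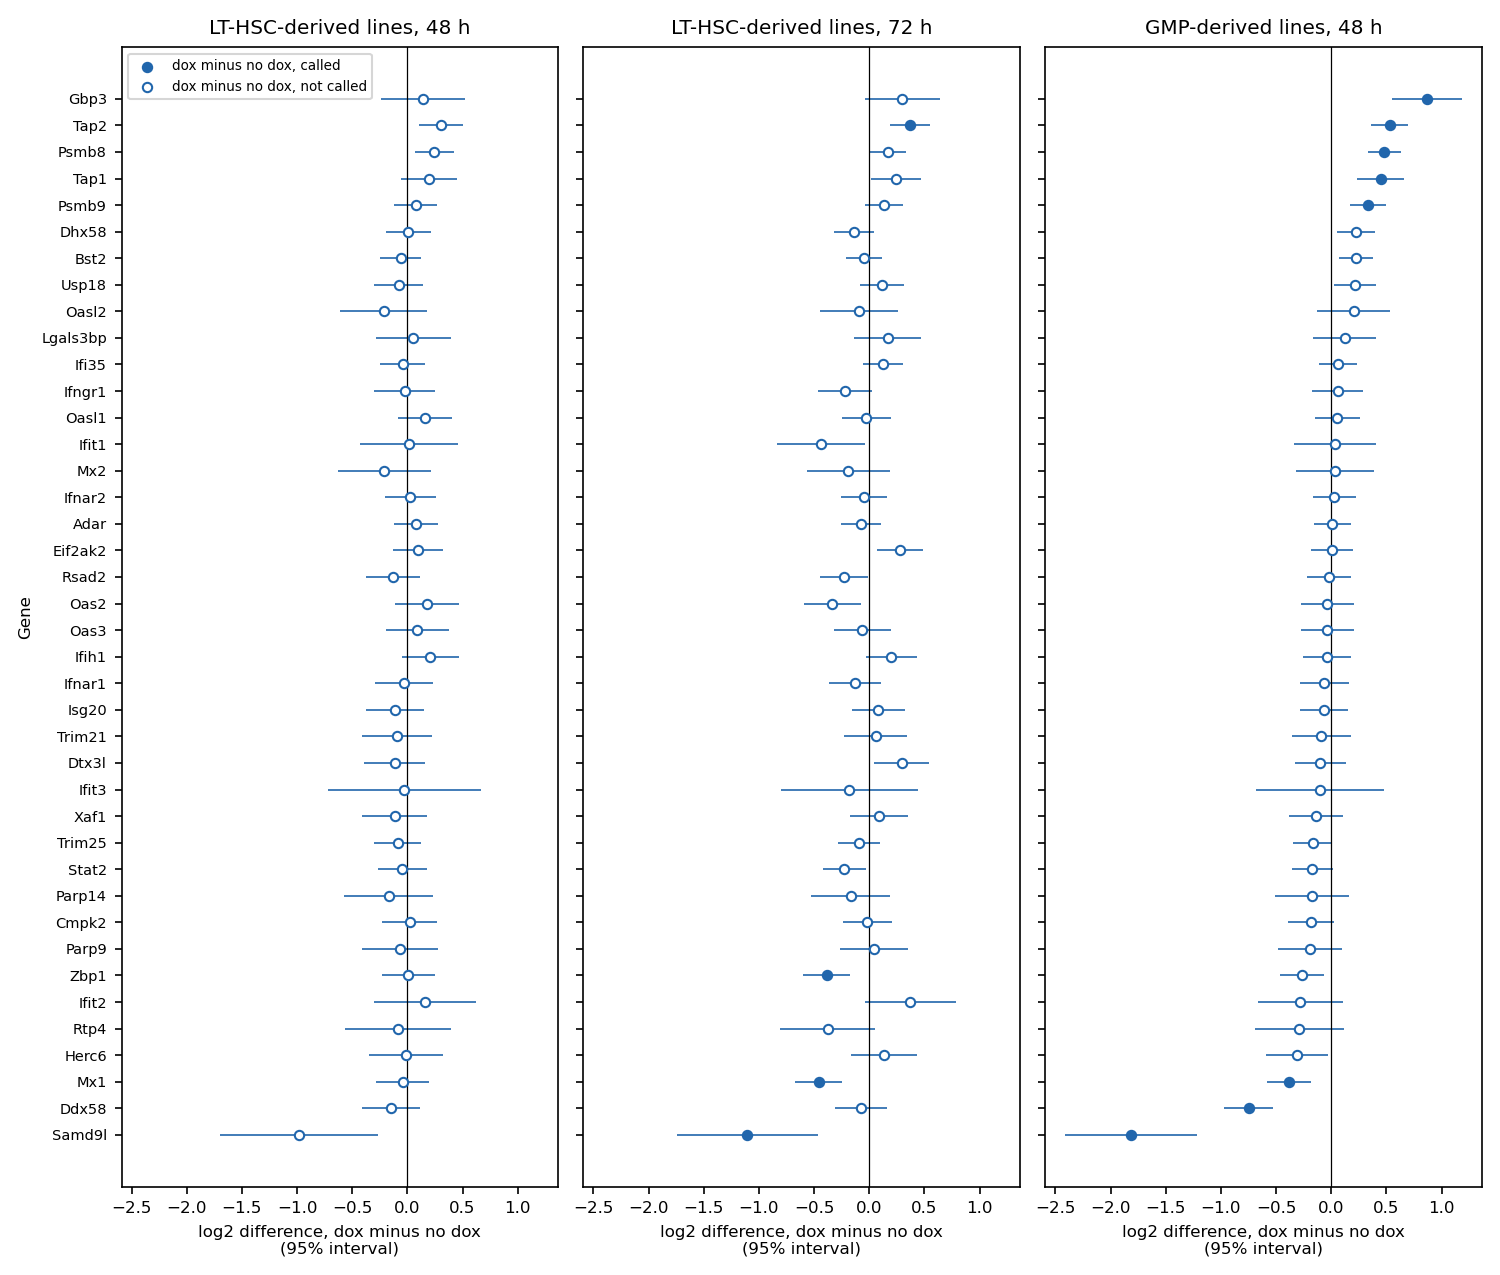
Log2 difference with minus without dox for the 40 genes in LT-HSC-derived lines at 48 h (left) and 72 h (middle) and in GMP-derived lines at 48 h (right), with 95% intervals of the fit; filled points were called and genes are ordered by the right panel. Samd9l lies lowest in each panel, at -0.98, -1.11 and -1.81, and the antigen processing genes and Gbp3 lie at the top of the right panel.

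Whether the dox effect differed between origins or hours was tested directly. Between GMP-derived and LT-HSC-derived lines at 48 h limma called 0 of the 40 genes (0.231% of all genes), with 7 at an unadjusted p under 0.05. The largest of these were Gbp3 at 0.73 ± 0.24 (95% interval 0.23 to 1.22; adjusted p = 0.291) and Ddx58 at -0.60 ± 0.17 (95% interval -0.95 to -0.26; adjusted p = 0.16). Samd9l gave -0.83 ± 0.45 (95% interval -1.76 to 0.10), which includes 0. Between 72 h and 48 h in LT-HSC-derived lines the test called 0 of the 40 genes (0% of all genes), with 4 at an unadjusted p under 0.05, the largest being Oas2 at -0.52 ± 0.19 (adjusted p = 0.814).

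From 48 h to 72 h itself, LT-HSC-derived lines held no call among the 40 genes. Without dox limma called 0 (0.181% of all genes), with 5 at an unadjusted p under 0.05. They were Oas2 (0.38 ± 0.13), Stat2 (0.33 ± 0.10), Zbp1 (0.31 ± 0.10), Mx1 (0.27 ± 0.10) and Dhx58 (0.26 ± 0.09), each higher at 72 h. With dox limma called 0 (0% of all genes), with 3 at an unadjusted p under 0.05: Dtx3l (0.38 ± 0.13), Xaf1 (0.31 ± 0.14) and Usp18 (0.25 ± 0.11).

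The values were last set beside the promoter sequences. In sorted GMP minus sorted LT-HSC, the 11 measured genes with an ISRE core had a median of -0.53, with 8 lower and 2 higher. The 19 genes whose window holds no core had a median of -0.34, with 10 lower and 3 higher, and the 10 without a window had a median of -0.62, with 9 lower. Genes with the core ran from -2.57 for Ddx58 to 1.16 for Gbp3, and those without it from -3.25 for Samd9l to 1.29 for Ifngr1. With dox in GMP-derived lines the medians were -0.04 with the core and 0.01 without it. Both classes thus held genes that were higher and genes that were lower in sorted GMP.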

How the data were processed

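The authors deposited log2 signals of 34760 probe sets on 26 arrays. The submitters' processing notes name limma and R 3.1.1, and the sources used here do not state how background was corrected or arrays were summarised and normalized. Precision is limited by the number of arrays. Among the probe sets, 21640 carried 1 symbol, 1321 several and 11799 none; none of the 40 measured genes had over 1 probe set, and no filter on dim signals was applied. With limma 3.58.1 (R 4.3.3; lmFit, contrasts.fit, eBayes), all arrays entered 1 model with a mean for each of the 8 groups and 12 comparisons of group pairs and 3 interactions, each adjusted over 19937 genes. Motifs and figures were made with Python 3.11.15 and matplotlib 3.10.9.

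The genes, lists and tests were chosen with earlier results of these data known. The rule named up to 8 of the largest called increases and decreases of a comparison, Ifnar1, Ifnar2, Ifngr1, Stat2, Isg15, Rtp4, Oasl2 and Bst2 in any comparison, Irf7, Irf9 and Ly6a, up to 4 called pathway genes, and genes that stood out by the rules of the closing section; where no gene was called, up to 4 of the largest were named as not called. Ly6a, like Isg15, had no probe set of its own. Other genes named for their role, an overlap or a lost call were chosen after their values were seen.

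The arrays of the cultured lines are paired by line, since same-numbered arrays of 1 origin come from the same line. Some line names also occur under both origins. The block by line name joined arrays of the same name across origins, and the labels do not say what a shared name means. Deviations from group means correlated by 0.29 to 0.40 in the 3 GMP-derived pairs and by -0.06 to 0.47 in the 15 LT-HSC-derived pairs, 12 of them over 0.1. No array was identical to another. The procedure was tested on simulated data. Alternatives were quantile normalization, median centring, a dim filter, the mean of probe sets, only the groups compared, a trended robust prior, array weights, replicate blocks and leaving out each array.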

Additional observations from a re-analysis of the deposited data

Results flagged for a closer look

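In 120 sets of 4 arrays (a gene in a group), a single array stood apart from the other 3 by Dixon's test in 2, and chance alone gives about 1 in 20. Mx1 read 4.59 in sorted GMP replicate 2, where the other arrays read 4.42 to 4.42. Gbp3 read 7.19 in replicate 3 of the GMP-derived lines with dox, where the others read 7.46 to 7.49.

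For 24 genes the difference between GMP and LT-HSC origin itself differed between sorted cells and lines without dox at 48 h (limma's interaction, lines minus sorted, adjusted p under 0.05 over all genes). Among the receptors and Stat2, the values were -0.85 for Ifnar2, -0.76 for Ifngr1 and 0.38 for Stat2. The sensors gave 2.02 for Ifih1 and 2.87 for Ddx58. The double-stranded RNA enzymes gave 1.78 for Oasl2, 1.02 for Oas2, 0.55 for Oas3, 0.73 for Eif2ak2 and 0.37 for Adar. The IFIT genes gave 1.84 for Ifit1, 1.54 for Ifit2 and 1.32 for Ifit3. Further effectors gave 0.98 for Rsad2, 0.90 for Isg20, -0.71 for Bst2, 3.56 for Samd9l, 2.78 for Rtp4 and 1.15 for Xaf1. In the ubiquitin-like system Herc6 gave 1.67 and Trim21 0.64. Gbp3 gave -1.22, and of the antigen processing genes Psmb8 gave -1.07 and Psmb9 -0.61. The call of Stat2 ended without sorted GMP replicate 4, LT-HSC-derived replicate 2 or GMP-derived replicate 2 (adjusted p 0.0548 to 0.12). That of Adar ended without sorted GMP replicate 3, LT-HSC-derived replicate 2 or 3 or GMP-derived replicate 3 (0.0502 to 0.066), and with a block by line name and sorted replicate number (0.0637). That of Oas3 ended without LT-HSC-derived replicate 1 (0.0505), and that of Ifit3 with only the groups compared in the fit (0.0619).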

How the results depend on the processing

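Of 2607 recomputed values of called genes, 2475 kept their call, 132 lost it (38 pairs of a gene and a comparison) and 0 reversed. The mean of probe sets is counted among these, although it cannot change the signal of a gene with 1 probe set, as all 40 genes have. The number of genes called with dox in LT-HSC-derived lines at 72 h moved from 4 to 7 with array weights and to 2 with only the groups compared, and was 2 to 4 with 1 array left out. From 72 h against 48 h without dox it moved from 0 to 1 with array weights. With only the groups compared, the origin comparison fell from 3 to 1 with dox and from 10 to 6 without; leaving out 1 array gave 0 to 2 and 8 to 9. Leave-one-out counts were 31 to 33 for the sorted comparison (32) and 7 to 9 for dox in GMP-derived lines (8). For LT-HSC-derived lines at 48 h against sorted LT-HSC they were 28 to 31 without dox (31) and 26 to 31 with dox (31). For GMP-derived lines against sorted GMP they were 12 to 15 without dox (16) and 8 to 11 with dox (10). No scaling shifted the median of all genes by over 0.042, but single genes moved more. With quantile normalization Psmb9 fell to 0.11 and Tap2 to 0.13 in LT-HSC-derived lines at 48 h without dox minus sorted LT-HSC. Of 237 recomputed medians of the 40 genes over all alternatives, 5 moved by over 0.061.

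With the replicate block within each set, counts were 32 (sorted), 0 and 4 (dox, LT-HSC-derived, 48 h and 72 h) and 8 (dox, GMP-derived); with the block by line name they were 0, 5 and 10 for dox, and 3 and 11 for origin with and without dox. These 2 blocks ended no gene's call. A block by line name and sorted replicate number, chosen after seeing the data, gave 26 calls for the origin interaction (24), of which 23 were shared, with a median of 0.44, and ended the call of Adar (adjusted p = 0.0637). Sorted arrays share only a number (r 0.020 to 0.060; 6 of 8 correlate best with their own number). Comparisons of sorted with cultured cells could not be fitted with a block, since no block holds both.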
